A study of Mus musculus with 44 samples.

Results

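The downstream stretch of the α-globin locus was described here, that is, the 236 DpnII restriction fragments of mouse chromosome 11 that run from the edge of the Hba-a1 viewpoint, at 32184782, to 32299952 (build mm9). They were chosen by position alone, out of 593979 fragments with counts in the formaldehyde series. Of these, 22 lie between the Hba-a1 and Hba-a2 promoters and 214 lie beyond Hba-a2, on the side that faces away from the α-globin enhancers. Interactions were captured from both promoters in Ter-119+ erythroid cells, sorted from the spleen of female C57BL/6 mice after phenylhydrazine, which destroys red cells and fills the spleen with red cell precursors. In the fixation series, cells were fixed with 0, 0.5, 1, 2, 3, 4 or 5% formaldehyde before Capture-C, with 2 technical replicates each. In the low-input series, LI-Capture-C and Tag-Capture-C were run on 200, 100 and 50 ng of 3C library with 3 libraries each, and the whole LI-Capture-C procedure was run on 10000, 20000, 50000 and 100000 cells with 3 libraries each. All low-input cells had been fixed with 2% formaldehyde. The paper speaks of triplicate aliquots of 3C library for the 2 low-input protocols, but calls them 3 biological replicates under its table of interaction numbers. No group differed in genotype, and animal identities were not given, so p-values measure only the spread between these libraries, which may be technical.

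In Capture-C, cross-linked chromatin is cut, neighbouring ends are ligated, and oligonucleotides enrich the ligation products of a chosen fragment, the viewpoint. In erythroid cells the α-globin promoters contact a cluster of enhancers that lies upstream, within and around the neighbouring housekeeping gene Nprl3. Interactions from a promoter normally fall with distance along the chromosome, and a domain is a stretch within which they fall more slowly than at its edge. CTCF is a DNA-binding protein often found at such edges. The gene order of the locus, in RefSeq, runs from Hba-x (embryonic ζ-globin) to Hba-a1, Hbq1b (a θ-globin gene), Hba-a2, Hbq1a (the other θ-globin copy), the non-coding gene Gm46275 and Sh3pxd2b, which encodes an adaptor protein of podosomes.

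The sequences of the promoters bear on what can be told apart in this stretch. The 250 bases before the starts of Hba-a1 and Hba-a2 (RefSeq, build GRCm38.p6) were identical at 247 of 247 aligned positions with a shift of 3 bases. The authors pooled the 2 viewpoints because their interactions could not be distinguished. The same windows of Hbq1b and Hbq1a were identical at 239 of 250 positions (95.6%). Interactions with the 2 θ-globin genes may therefore also be partly assigned to the wrong copy. The first of these genes lies between the viewpoints and the second beyond them. The sequences of whole restriction fragments were not compared. The viewpoint promoter and both θ-globin promoters are given below 5′ to 3′ on the plus strand, at chr11:32283422-32283671 for Hba-a1, chr11:32286714-32286963 for Hbq1b and chr11:32299819-32300068 for Hbq1a. Capitals mark a GATA motif (TGATAA, either strand) in Hba-a1 and a core motif of CTCF (either strand) in Hbq1b and Hbq1a.
Hba-a1: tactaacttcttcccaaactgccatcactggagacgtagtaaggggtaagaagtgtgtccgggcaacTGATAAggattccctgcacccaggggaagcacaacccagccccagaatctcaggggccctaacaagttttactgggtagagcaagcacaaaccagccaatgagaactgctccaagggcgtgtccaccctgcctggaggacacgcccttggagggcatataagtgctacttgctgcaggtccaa
Hbq1b: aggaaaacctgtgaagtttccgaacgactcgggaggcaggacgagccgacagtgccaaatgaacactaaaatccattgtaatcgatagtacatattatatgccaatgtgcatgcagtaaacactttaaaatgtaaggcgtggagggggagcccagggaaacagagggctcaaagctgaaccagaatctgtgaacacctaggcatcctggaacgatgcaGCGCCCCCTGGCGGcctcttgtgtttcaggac
Hbq1a: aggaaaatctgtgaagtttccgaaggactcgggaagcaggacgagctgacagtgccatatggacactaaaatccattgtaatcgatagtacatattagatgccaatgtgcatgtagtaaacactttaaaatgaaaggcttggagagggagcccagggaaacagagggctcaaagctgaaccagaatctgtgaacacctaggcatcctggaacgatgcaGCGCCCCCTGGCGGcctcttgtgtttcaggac

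The CTCF letters were found in both θ-globin promoters as the identical run GCGCCCCCTGGCGG on the minus-strand orientation, starting 32 bases before the gene start, and in 139 of 32851 mouse promoters of the same length (0.423%). The GATA letters were found in Hba-a1 and Hba-a2 and in 7.94% of promoters. The Sh3pxd2b window held neither. A match is a description of letters and not a bound site. None of these 5 windows holds a DpnII site (GATC), whereas 41.9% of promoters do. These positions are in GRCm38.p6 and were not converted, so the fragments below, in mm9, were not placed relative to them.

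The viewpoints appear as gaps of 2465 bp (Hba-a1) and 2609 bp (Hba-a2) in the list of fragments. The fragments were 16 to 3014 bp long with a median of 353 bp. Of the 236 fragments, 17 had no count in the low-input series, among them the 3 that touch a gap, and for the whole procedure 212 fragments are listed, without those 3. Levels next to the viewpoints are therefore not comparable between the fixation series and the others. Total interactions per library ran from 57467 to 168633 in the fixation series, from 5140 to 33512 in the low-input series and from 2571 to 52093 in the whole procedure. At 0% formaldehyde the downstream stretch held 49 and 116 interactions. The technical replicates at 1% formaldehyde stood apart from each other, with 39.3 and 58.4% of interactions on chromosome 11, whereas all libraries of 3, 4 and 5% lay between 68.8 and 74.7%.

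Interactions in the downstream stretch fell in steps, not evenly. In the summed 2% libraries the level beyond Hba-a2 was 348 interactions per kb and 100000 interactions at 0 to 5 kb, 188 at 5 to 10 kb and 94.7 at 10 to 15 kb. It then rose to 124 at 15 to 20 kb and 115 at 20 to 25 kb and fell to 51.9 at 25 to 30 kb. From 50 to 100 kb it averaged 9.34, and from 100 to 150 kb, outside the stretch, 5.56. The profile thus had its highest level next to Hba-a2, a dip, a shoulder at 15 to 25 kb and a long low tail. Each fragment was counted whole in the window of its midpoint, and levels were not corrected for the number or length of fragments. Beyond Hba-a2, 6 fragments lay at 0 to 5 kb, 17 at 5 to 10 kb, 37 at 10 to 25 kb and 45 at 25 to 50 kb. The part of this spacing in the steps and the shoulder was not tested.

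**Figure D1:**
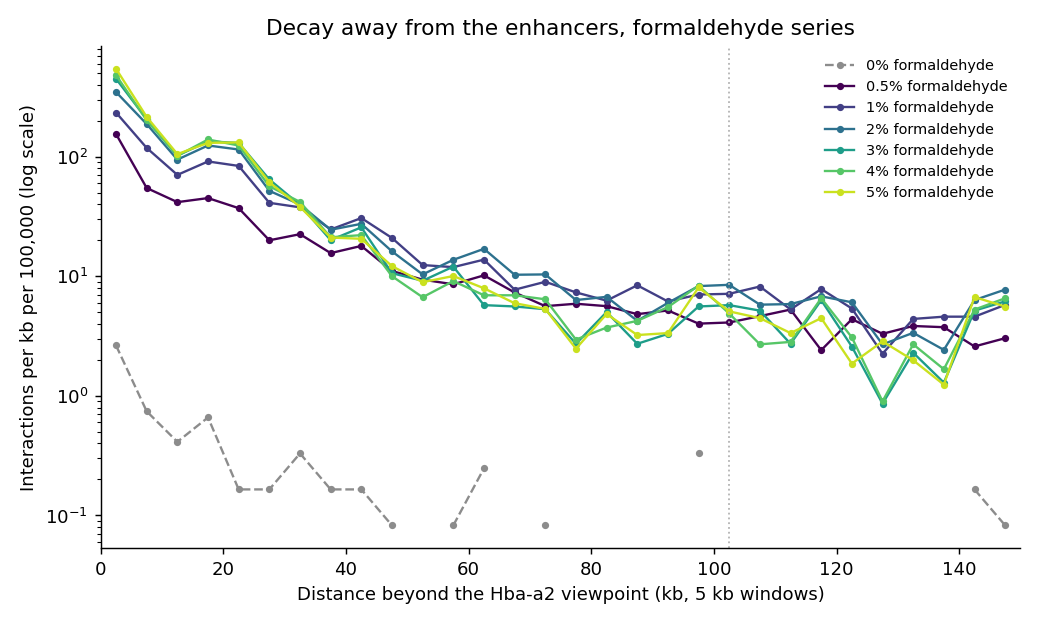
Interactions per kb and 100000 interactions (log scale) in 5 kb windows against distance beyond the Hba-a2 viewpoint (kb), 2 libraries summed per formaldehyde concentration. Windows with no count are not drawn, and the dotted line marks the end of the described stretch. The fixed groups share the steps at 5 and 25 kb, and at 0% formaldehyde the first window was at 2.64.

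The largest drop between neighbouring 5 kb windows of the 2% libraries was the one at 5 kb. By fragment midpoints, these windows meet between the fragments chr11:32200470-32203107 (2638 bp, 2.87 to 5.51 kb beyond the viewpoint) and chr11:32203108-32203405 (298 bp). In the summed 2% libraries these held 574 and 289 interactions, and the fragment before them, chr11:32200138-32200469, held 864. The same 3 fragments, in that order, held 253, 176 and 75 interactions in LI-Capture-C from 200 ng, 185, 125 and 41 in Tag-Capture-C from 200 ng, and 368, 218 and 119 in 100000 cells. The order by count was the same in all 4 groups, but the fragments differ in length. Per base of fragment, the 298 bp fragment was above the 2638 bp fragment in all 4 groups. The counts of these fragments therefore do not place the drop at this boundary. Per kb, the level at 0 to 5 kb was above that at 5 to 10 kb in 42 of 42 fixed libraries. In the other fixation groups the largest drop also lay at 5 kb, as it did in LI-Capture-C from 100 and 200 ng, Tag-Capture-C from 50 ng and 10000 cells. In the other 6 low-input groups it lay at 10 kb. The first window is not alike in the series, since the fragment that touches the viewpoint was counted in the fixation series alone, with 1048 of the 5161 interactions of this window at 2%. Without it the level fell at 5 kb 2.38-fold at 0.5%, 1.48-fold at 2% and 1.99-fold at 5% formaldehyde, against 1.66-fold in LI-Capture-C and 1.44-fold in Tag-Capture-C from 200 ng and 1.46-fold in 100000 cells. At 2% the largest drop then also lay at 10 kb, or at 5 kb when the window was scaled to its remaining length. The first window stayed above the second in 42 of 42 fixed libraries.

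The second drop, at 25 kb, closed the shoulder. The level at 20 to 25 kb was above that at 25 to 30 kb in 39 of 42 fixed libraries, 2.22-fold in the summed 2% libraries, 2.15-fold at 5%, 2.36-fold in LI-Capture-C from 200 ng and 2.13-fold in 100000 cells. In fold terms it was the largest drop between windows of at least 10 counts at 1 and 2% formaldehyde, in LI-Capture-C from 200 ng and in 20000 cells. The shoulder itself, that is, a mean level at 15 to 25 kb above that at 10 to 15 kb, was seen in 38 of 42 fixed libraries. It was absent at 0.5% formaldehyde, where the log2 ratio was -0.02 in both libraries, and it was 0.17 and 0.43 at 1%, 0.31 and 0.38 at 2%, and 0.26 to 0.45 at 3 to 5%. The other exceptions were LI-Capture-C libraries, replicate 1 from 100 ng (-0.07) and replicate 2 from 200 ng (-0.20).

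The reach of the downstream interactions shortened from the weakly to the strongly fixed groups. Reach was taken as the distance within which 80% of the interactions beyond Hba-a2 fell, without the fragment that touches the viewpoint. In summed libraries it was 40.8 kb at 0.5%, 36.0 kb at 1%, 28.2 kb at 2%, 24.4 kb at 3 and 4% and 23.7 kb at 5% formaldehyde. Single libraries were at 40.8 and 40.1 kb at 0.5%, and at 40.1 and 32.8 kb at 1%. At 0% it was 37.0 kb, with 57.1 and 22.8 kb in single libraries of 23 and 41 such interactions. In the low-input groups it lay between 24.4 and 26.5 kb, and in the whole procedure between 28.2 and 29.9 kb.

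**Figure D2:**
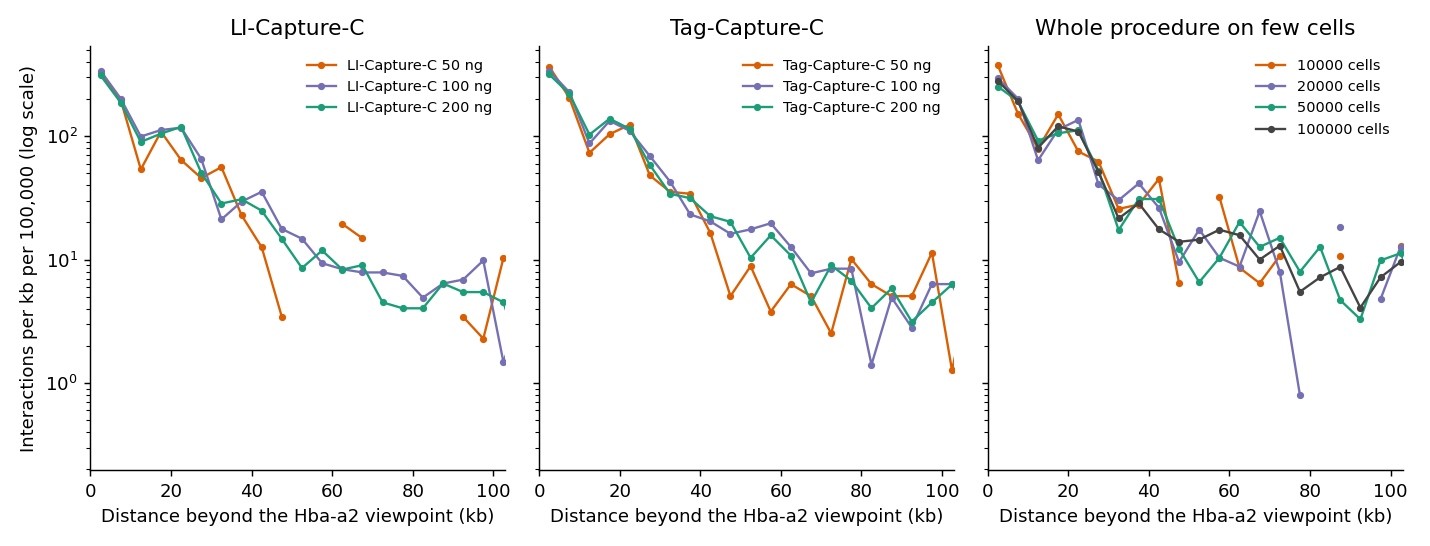
The same profile for LI-Capture-C, Tag-Capture-C and the whole procedure on few cells, 3 libraries summed per group, as interactions per kb and 100000 interactions (log scale) against distance (kb). All 10 groups show the dip at 10 to 15 kb and the shoulder after it, and breaks in the lines are windows with no count.

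Decay was measured as the slope of ln count on ln distance over 2 to 100 kb beyond Hba-a2, in bins of 2.5 kb. More negative slopes mean steeper decay. Both viewpoints are pooled, so for interactions of Hba-a1 the true distance is longer. The slopes of the 2 libraries were -0.88 and -0.96 at 0.5%, -0.87 and -0.97 at 1%, -1.01 and -1.07 at 2%, -1.10 and -1.14 at 3%, -1.15 and -1.14 at 4%, and -1.16 and -1.16 at 5% formaldehyde. The libraries of 0.5 and 1% overlapped, and all those of 3 to 5% were steeper than all those of 0.5 to 2%. At 0% the slopes, from few counts, were -0.66 and -1.24. Over the 7 concentrations, with replicates summed, the slope fell by 0.0476 per percent (Pearson's r = -0.864, Spearman's rho = -0.893, exact permutation p = 0.0167 for r and 0.0123 for rho, Benjamini-Hochberg adjusted over 19 tests 0.0396). Without 0 and 5% r was -0.973. Without the first 0% library the change was -0.0242 and the adjusted p 0.483, and without the second 1% library the adjusted p was 0.0545.

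The decay was steeper than on the enhancer side at mirrored distances from Hba-a1. There the slopes were -0.43 at 0.5% and -0.77 at 5% formaldehyde in summed libraries. In the fixation series the downstream slope was lower at 6 of 6 concentrations, with differences from -0.48 to -0.39 (mean -0.42 ± 0.03 SD). The exact sign-flip permutation p, 0.03125, is the smallest that 6 pairs allow, and adjusted it was 0.0549. In the low-input series it was lower in 18 of 18 libraries (mean -0.54 ± 0.10 SD, exact permutation adjusted p = 0.000145) and in the whole procedure in 12 of 12 (mean -0.43 ± 0.10 SD, adjusted p = 0.00464). In the 2% libraries the enhancer side held 1.66 times the downstream level at 0 to 5 kb, 2.87 times at 5 to 10 kb, 10.6 times at 25 to 50 kb and 8.97 times at 50 to 100 kb. At 0.5% the same ratios were 0.893, 1.33, 4.16 and 4.41.

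**Figure D3:**
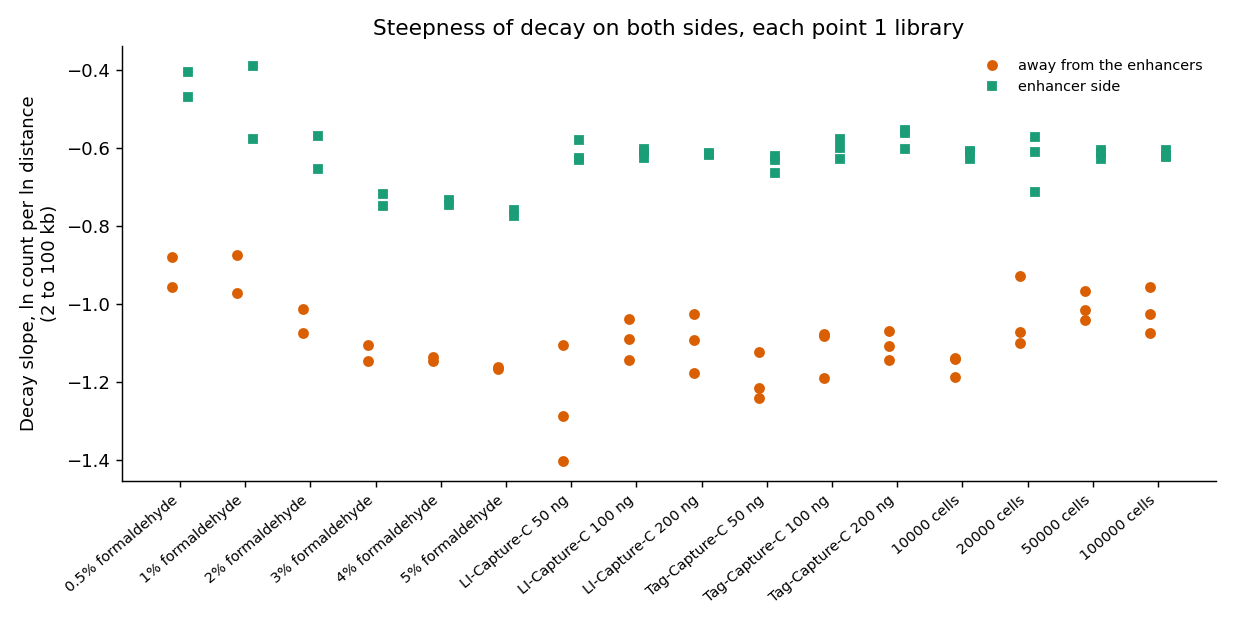
Slope of ln count on ln distance over 2 to 100 kb in each fixed library, downstream (circles) and on the enhancer side (squares), by group. In all 42 libraries the downstream slope lies below that of the enhancer side.

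As a measure of a possible domain edge, called the edge here, the log2 ratio of the level at 10 to 30 kb over that at 50 to 100 kb was taken. The ratio is above 0 for any decay with distance, so it places no edge and does not show that a domain ends here. It was 0.67 and 3.01 in the libraries of 0%, which had 5 and 4 interactions at 50 to 100 kb, 2.51 and 2.26 of 0.5%, 2.72 and 3.24 of 1%, 3.34 and 3.41 of 2%, 4.24 and 4.23 of 3%, 4.12 and 4.11 of 4%, and 4.13 and 4.18 of 5% formaldehyde. The second 0% library thus lay above both libraries of 0.5%. In linear terms the summed groups went from 5.40-fold at 0.5% to 10.3-fold at 2% and 17.3- to 18.9-fold at 3 to 5%. Over the 7 concentrations it rose by 0.42 per percent (r = 0.932, rho = 0.893, exact permutation p = 0.00516 for r, adjusted p = 0.0245), with r = 0.944 without 0 and 5%. Within 0 to 2% the change was 0.60 per percent, and within 3 to 5% it was -0.04. Libraries of 0 to 2% and of 3 to 5% carry run names of different form in their descriptions, and this set and the concentration cannot be told apart. At the 2 ends of the ratio, the level at 10 to 30 kb was 36.0 at 0.5%, 96.5 at 2% and 107 at 5%, and that at 50 to 100 kb was 6.67, 9.34 and 6.02.

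Of all interactions, the downstream stretch took 0.038 and 0.102% at 0% formaldehyde, 5.30 and 4.10% at 0.5%, 6.82 and 9.90% at 1%, 11.8 and 13.6% at 2%, 14.3 and 15.1% at 3%, 14.9 and 15.6% at 4%, and 16.4 and 16.4% at 5%. The pairs of 0, 0.5, 1 and 2% did not overlap with each other, and those of 3 and 4% did. Over the 7 concentrations the share rose by 3029 per 100000 interactions and percent (r = 0.921, rho = 1, exact permutation p = 0.00357 for r, adjusted p = 0.0226), with r = 0.942 without 0 and 5%. Within 0 to 2% it rose by 6113 and within 3 to 5% by 819, values with no test. The size and direction depended on the denominator. In summed libraries, the percent of all interactions that lay on chromosome 11 itself rose, from 5.71 at 0% and 29.6 at 0.5% to 65.7 at 2% and 74.4 at 5%. Of the interactions on chromosome 11, the stretch took 1.19% at 0%, 16.2% at 0.5%, 19.2% at 2% and 22.1% at 5%. Of the interactions within 250 kb of the viewpoints, the stretch took 32.9 and 44.4% at 0%, 41.2 and 42.7% at 0.5%, 41.1 and 32.5% at 1%, 33.5 and 32.7% at 2%, and 31.8 to 33.0% at 3 to 5%, a change of -1784 per 100000 and percent (adjusted p = 0.0482 by the same exact permutation test).

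**Figure D4:**
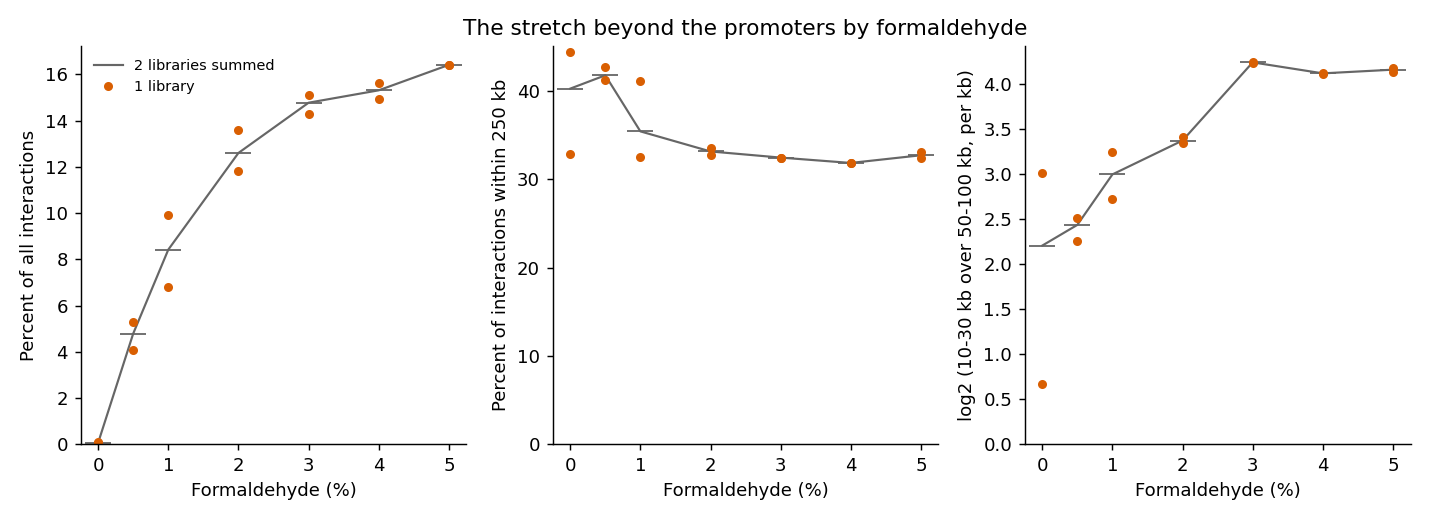
Percent of all interactions (left) and of interactions within 250 kb (middle) that fall in the downstream stretch, and the log2 edge ratio (right), against formaldehyde (%). Points are single libraries and the line joins the 2 libraries summed. The share of all interactions rises from 0.068 to 16.4%, the local share lies between 31.8 and 32.7% from 3%, and the edge ratio is flat from 3%.

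The 22 fragments between the promoters, which include Hbq1b by gene order, held about as many interactions as the 214 beyond Hba-a2. At 0% formaldehyde, from 49 and 116 interactions, their part of the stretch was 49.0 and 56.0%. It was 46.2 and 53.6% at 0.5%, 42.9 and 54.0% at 1%, 50.9 and 60.3% at 2%, 56.7 and 58.8% at 3%, 58.2 and 59.1% at 4%, and 59.0 and 59.1% at 5% formaldehyde. In summed libraries 0%, at 53.9%, lay above 0.5% (48.8%) and 1% (49.7%). The replicates of 0.5, 1 and 2% differed more than those of 3, 4 and 5%. Over the 7 concentrations the part rose by 1.89 percentage points per percent (r = 0.840, rho = 0.893, exact permutation p = 0.0218, adjusted p = 0.0461), with r = 0.963 without 0 and 5%. Leaving out single libraries ended this call in 7 of 14 cases, listed in the closing section. As a part of all interactions within 250 kb the change was -0.30 percentage points (adjusted p = 0.463).

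Between the protocols, the part between the promoters differed at the larger inputs. It was 52.0, 55.3 and 52.6% in LI-Capture-C and 48.3, 50.7 and 46.7% in Tag-Capture-C from 200 ng, and 52.6, 54.8 and 50.8% against 46.3, 48.2 and 48.9% from 100 ng. In both inputs the protocols did not overlap. From 50 ng it was 59.5, 60.3 and 51.0% against 57.5, 52.7 and 54.6%, and they did. Within inputs, Tag-Capture-C was lower by 3.88 percentage points (exact permutation p = 0.0105, adjusted p = 0.0396), a call that leaving out 1 library ended in 4 of 18 cases. At 1 input alone, 3 libraries against 3 cannot give a p below 0.1. The part fell by 2.51 percentage points per doubling of input within protocols (permutation p = 0.0128, adjusted p = 0.0396). Leaving out 1 library ended this call in 5 of 18 cases, and with either protocol alone the adjusted p was 0.326 (LI-Capture-C) and 0.0562 (Tag-Capture-C).

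The other measures of the stretch did not differ between the protocols by the same test. Its share of all interactions in each library was 10.7, 11.0 and 11.2% in LI-Capture-C and 10.5, 11.4 and 11.3% in Tag-Capture-C from 200 ng, 11.3, 11.7 and 12.6% against 11.3, 10.9 and 11.2% from 100 ng, and 9.5, 11.9 and 11.4% against 11.6, 12.0 and 12.2% from 50 ng. The difference was 120 per 100000 (adjusted p = 0.753), 0.013 for the slope (adjusted p = 0.753) and -0.27 for the edge (adjusted p = 0.483). With input the slope rose by 0.0635 per doubling (permutation p = 0.0152, adjusted p = 0.0396), that is, decay was steepest from 50 ng. The 3 LI-Capture-C slopes were -1.40, -1.29 and -1.11 from 50 ng, -1.14, -1.09 and -1.04 from 100 ng and -1.09, -1.17 and -1.03 from 200 ng. Those of Tag-Capture-C were -1.12, -1.24 and -1.21, then -1.19, -1.08 and -1.08, and then -1.07, -1.14 and -1.11. The inputs overlapped in both protocols. The tail at 50 to 100 kb held only 4 to 25 interactions per 50 ng library against 47 to 132 from 200 ng. Leaving out 1 library ended the call in 6 of 18 cases, 4 of them libraries of 50 ng and 2 of 200 ng, with a change as low as 0.0441 (adjusted p = 0.0727 by permutation). It was also lost over 5 to 100 kb (0.0330, adjusted p = 0.457) and with distance from the midpoint of the promoters (0.111, adjusted p = 0.0506). Share and edge did not pass the test with input (-196 per 100000, adjusted p = 0.457, and -0.16, adjusted p = 0.483).

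In the whole procedure on few cells the first step was seen down to 10000 cells, and the second was small there. Summed over 3 libraries, the level fell 2.46-fold at 5 kb in 10000 cells and 1.46-fold in 100000 cells. At 25 kb it fell 1.21-fold in 10000 cells (75.1 to 62.2 per kb) against 3.33-fold in 20000 and 2.13-fold in 50000 and 100000 cells. In 10000 cells the shoulder ended at 20 kb, where the level fell from 150.2 to 75.1. The share of all interactions was 10.5, 11.9 and 12.5% in 10000 cells, 10.8, 10.7 and 12.0% in 20000, 9.23, 9.83 and 10.5% in 50000 and 11.0, 11.0 and 9.85% in 100000 cells. It changed by -400 per 100000 and doubling (permutation p = 0.0686, adjusted p = 0.109). The slopes were -1.19, -1.14 and -1.14 in 10000 cells, -0.93, -1.10 and -1.07 in 20000, -1.01, -0.97 and -1.04 in 50000 and -1.07, -1.03 and -0.95 in 100000 cells. The 10000-cell libraries were the steepest and did not overlap with the others, and the change of 0.0381 per doubling had an adjusted p of 0.0549. Edge (-0.31 per doubling, adjusted p = 0.281) and the part between the promoters (-0.863 percentage points, adjusted p = 0.457) did not pass the test. In the 10000-cell libraries the edge rests on 12, 19 and 1 interactions at 50 to 100 kb and ranged from 3.11 to 6.42. Of the fragment values at 50 to 100 kb, 82.9% were 0 in the whole procedure and 32.2% in the fixation series. Of those above 0, 11.5 and 22.0% were a single interaction.

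Single fragments were tested for a trend over the 6 fixed concentrations, with replicates summed. Of the 146 fragments of the stretch with a mean count of at least 10, 69 were called at an adjusted p under 0.05 (edgeR quasi-likelihood test, Benjamini-Hochberg over 623 fragments), 35 of which rose and 34 fell. The background over all tested fragments was 43.3% called, 23.4% rising and 19.9% falling, so the share called in the stretch was near the background. The other 90 fragments of the stretch were below the count limit. Fitted on fragments within 250 kb alone, 80 of 146 were called, 27 rising and 53 falling. The background there was 234 of 446, 105 rising and 129 falling. Without the first 2% library 45 of 128 were called, 17 rising and 28 falling, against a background of 195 of 519 (86 rising and 109 falling). DESeq2 called 60, 30 in each direction, against a background of 37.7% (21.2% rising and 16.5% falling). With library totals in place of TMM factors 36 were called, 34 rising and 2 falling, against a background of 23.3% (22.6% rising and 0.642% falling). The median log2 change in the stretch moved from 0.00 to 0.23 per percent, and that over all tested fragments from -0.0025 to 0.232. With a term for the 2 sets of libraries (0.5 to 2% and 3 to 5%), 0 were called, and 17 had an unadjusted p under 0.05. Over all 623 fragments 0 were called and 71 had such a p.

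Rising and falling fragments lay at different distances. Between the promoters 11 of 22 tested fragments rose and 0 fell. From 0 to 10 kb 7 of 23 rose and 0 fell, and from 10 to 25 kb 13 of 37 rose and 2 fell. From 25 to 50 kb 4 of 37 rose and 14 fell, and beyond 50 kb 0 of 27 rose and 18 fell, while the other 83 of the 110 fragments there were too low to test. With library totals, 2 fragments fell, both beyond 50 kb, and 0 of those at 25 to 50 kb did.

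Up to 25 kb, the length of a fragment moved with its change more than its distance did. Among the 82 tested fragments up to 25 kb, 16 of 22 under 150 bp rose and 0 fell, with a median log2 change of 0.35 per percent. Of those from 150 to under 500 bp, 14 of 37 rose (median 0.14), and of those of 500 bp or longer 1 of 23 rose and 2 fell (median -0.05). Beyond 25 kb, 28 of 35 fragments of 500 bp or longer fell and 0 rose. Of those from 150 to under 500 bp there, 1 of 23 rose and 4 fell. Of the 6 under 150 bp there, 3 rose and 0 fell (median 0.21). Across the 82 fragments, which share libraries, rho was -0.79 with length and -0.09 with distance. Across the 64 tested fragments beyond 25 kb it was -0.72 with length and -0.73 with distance. The relation to length was not particular to the stretch, with rho = -0.66 over the other 300 tested fragments within 250 kb. Of these, 32 of 57 under 150 bp rose and 0 fell. From 150 to under 500 bp 58 of 135 rose and 9 fell, and of those of 500 bp or longer 16 of 108 rose and 44 fell. Of the interactions up to 25 kb, the share on the 22 fragments under 150 bp was 5.54% at 0.5%, 6.24% at 1%, 8.69% at 2%, 10.3% at 3%, 10.8% at 4% and 11.0% at 5% formaldehyde in summed libraries. In the low-input groups it was 6.26 to 8.03%, and in the whole procedure 7.57 to 10.8%. The part of fragment length in the trends was not tested further.

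**Figure D5:**
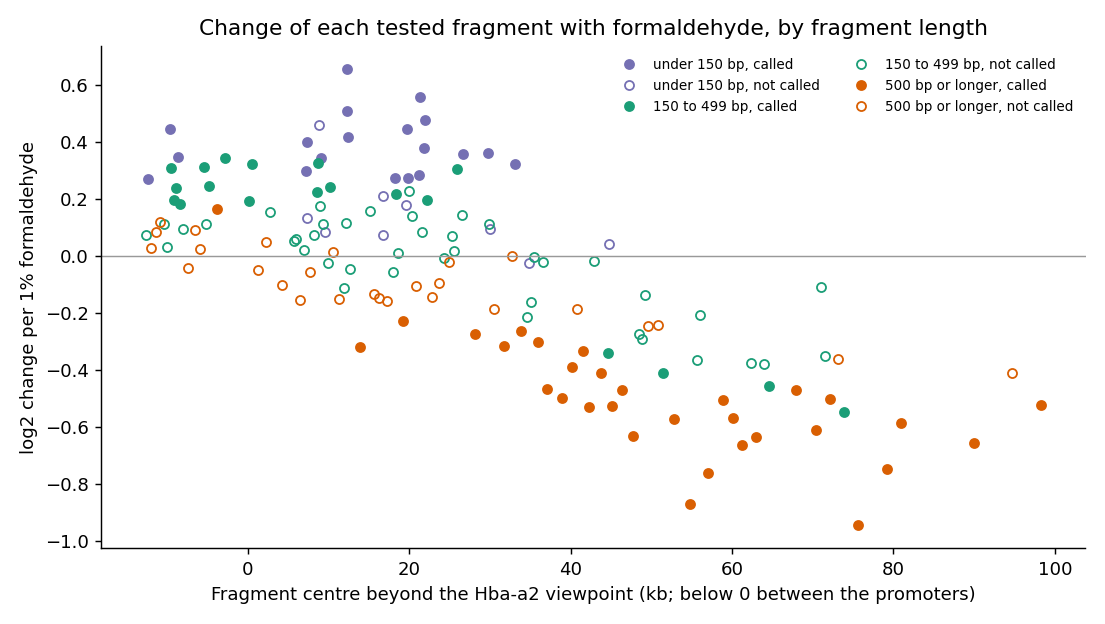
log2 change per 1% formaldehyde of the 146 tested fragments against distance beyond the Hba-a2 viewpoint (kb), by fragment length, filled where called. Short fragments lie above 0 up to 25 kb, and nearly all long fragments lie below 0 beyond it. Of the 6 fragments under 150 bp beyond 25 kb, 3 were called as rising and 0 as falling.

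Of the fragments that rose, the one with the smallest adjusted p lay between the promoters, at chr11:32187832-32187969 (138 bp). It went from 30 and 22 interactions in the single libraries at 0.5% to 239 and 193 at 5%. Per 100000 interactions of the summed libraries this is 23.3 at 0.5%, 60.7 at 1%, 147 at 2%, 214 at 3%, 244 at 4% and 268 at 5%, an increase at every step. Its log2 change was 0.45 ± 0.07 (SE) per percent (edgeR adjusted p = 0.00048). The next was chr11:32209895-32210016 (122 bp, 12.4 kb beyond Hba-a2), at 4.02, 9.30, 20.2, 28.7, 33.4 and 43.5 per 100000, with a log2 change of 0.42 ± 0.08 per percent (adjusted p = 0.00133).

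Of the fragments that fell, the 2 with the lowest adjusted p lay beyond 50 kb. The longest fragment of the stretch, chr11:32271671-32274684 (3014 bp, 75.6 kb), had 10.7, 12.2, 8.76, 2.87, 3.22 and 1.86 interactions per 100000 from 0.5 to 5%. Its log2 change was -0.94 ± 0.15 per percent (edgeR adjusted p = 0.00048). The single libraries held 11 and 13 interactions at 0.5%, but only 0 and 4 at 3%, 0 and 5 at 4% and 3 and 0 at 5%. Fragment chr11:32252025-32252650 (626 bp, 54.7 kb) had 8.5, 19.1, 11.1, 3.59, 2.57 and 3.11 per 100000, with -0.87 ± 0.14 per percent (adjusted p = 0.00055). Its libraries held 13 and 6 interactions at 0.5%, 2 and 3 at 3%, 3 and 1 at 4% and 2 and 3 at 5%. In both, the 3 groups of 0.5 to 2% were all higher than the 3 of 3 to 5%, and 1% was the highest. With a term for the 2 sets the adjusted p of the 4 fragments was 0.438 to 0.469.

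Between the protocols 1 of 32 tested fragments was called, against a background of 0.752% of 133 fragments. It was chr11:32185293-32185902 (610 bp, the third fragment from the Hba-a1 gap), which was lower in Tag-Capture-C. Per 100000 it was at 389, 405 and 379 in LI-Capture-C and 261, 425 and 149 in Tag-Capture-C from 200 ng, 513, 441 and 492 against 155, 244 and 324 from 100 ng, and 343, 562 and 447 against 214, 270 and 364 from 50 ng. The protocols did not overlap from 100 ng, and overlapped from 200 and 50 ng. DESeq2 and library totals also called 1 fragment of the stretch, against backgrounds of 3.01 and 1.5%. The log2 difference was -0.66 ± 0.16 (SE, edgeR adjusted p = 0.0134), and the adjusted p was 0.0643 without the first LI-Capture-C library from 100 ng, 0.0806 without the first Tag-Capture-C library from 100 ng and 0.0951 without the third Tag-Capture-C library from 200 ng. With input 0 of 32 fragments were called by edgeR (background 0%, 1 with an unadjusted p under 0.05, and 0 by DESeq2). With cell number 0 of 49 were called by edgeR (background 0%, 5 with an unadjusted p under 0.05, and 0 by DESeq2). Fragments beyond 50 kb had too few counts to be tested in any of these 3 comparisons.

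Peaks were sought as fragments with at least 1.5 times the median count of the 10 nearest fragments, and at least 10 counts, in each of the summed groups of 2% formaldehyde, 200 ng of either protocol and 100000 cells. Of 83 fragments with enough counts 3 met this, all beyond Hba-a2. Fragment chr11:32218130-32218753 (624 bp, 20.8 kb) was the highest at 2.36 to 4.36 times its neighbours. It held 121 and 73 interactions in the 2% libraries, 18, 19 and 22 in LI-Capture-C and 11, 14 and 8 in Tag-Capture-C from 200 ng, and 60, 25 and 35 in 100000 cells. The fragment before it, chr11:32217703-32218129 (427 bp, 20.3 kb), reached at least 1.59 times and chr11:32206755-32207139 (385 bp, 9.35 kb) at least 1.65 times. The first pair lies in the shoulder. In the other fixation groups the 3 fragments did not always meet the rule. The highest was at 7.38 times its neighbours at 0.5% but at 1.21 and 1.32 times at 4 and 5%. The fragment before it was at 1.27 times at 3%, and the fragment at 9.35 kb at 1.37 times at 0.5% and at 1.08 and 1.24 times at 4 and 5%. In the smaller low-input groups the highest was at 2.27 to 4.67 times, with no ratio in 10000 cells. The fragment before it was at 0.286 times in LI-Capture-C from 50 ng (1 interaction) and 1.33 times in 20000 cells. The fragment at 9.35 kb was at 1.38 and 0.929 times in Tag-Capture-C from 50 and 100 ng. Both had 0 interactions in 10000 cells. The neighbours of the pair in the shoulder had a median length of 112 bp, and per base of fragment the 3 ratios fell to 0.451, 0.513 and 0.902. By counts per base, a setting chosen after seeing the data, 8 other fragments met the rule and none of the 3. Across the 209 fragments more than 5 kb beyond Hba-a2, which share libraries, count was correlated with length in the 2% libraries (rho = 0.33) and more closely with distance (rho = -0.81). No fragment therefore stood out as a peak both by count and per base.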

How the data were processed

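Unique interactions of the α-globin promoters were measured with Capture-C in 44 libraries of primary erythroid cells. The authors trimmed and mapped the reads (Trim Galore, Bowtie and build mm9 per the labels' processing notes, versions not given), removed PCR duplicates by their mapped ends (with tolerance for shifted ends at low input), pooled both promoters and deposited raw counts per DpnII fragment. Independent molecules that share both ends are lost in this step, which can lower counts. Tables of the β-globin and Slc25a37 viewpoints were not used here.

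Counts were scaled to 100000 interactions per library. Shares, slopes (Poisson regression) and the edge ratio (0.5 added to each count) were tested with two-sided permutation tests, exact over 5040 orders of the 7 concentrations and 8000 assignments of protocol within inputs, and with 100000 resamples for input and cell number. P-values were adjusted over these 19 tests by the Benjamini-Hochberg method, at a threshold of 0.05. TMM scaling rests on most fragments being unchanged, so library totals were also used. Fragments with a mean count of at least 10 were tested with edgeR 4.0.16 (quasi-likelihood, TMM) in R 4.3.3, with DESeq2 1.42.0 as an alternative. Other steps used Python 3.11.15, NumPy 2.4.6, SciPy 1.17.1, pandas 2.3.3 and matplotlib 3.10.9. The tests were tested on simulated counts, where edgeR found 67 of 67 fragments changed by 0.4 (log2 per percent of formaldehyde, 538 tested, 3 false calls), 26 of 26 changed by 1.5 between protocols (136 tested), 24 of 24 changed by 1 per doubling of input (131 tested, 1 false call) and 30 of 30 per doubling of cell number (163 tested). All simulated fragments had the same spread, and the change between protocols was larger than that of the fragment called (-0.66). The recovery therefore does not show that smaller changes would be found in the low-input libraries.

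Named fragments were the peaks, the 2 called fragments with the smallest adjusted p in each direction of each test, and those flanking the largest drop between 5 kb windows. The fragments, measures and lists were chosen with earlier results of these data known. Alternatives were other denominators, distances, windows, scalings and filters, a block for the replicate number, and fits that omitted single libraries. Deviations of same-numbered libraries from their group means correlated with a mean r of -0.042 in the low-input series (11 of 45 pairs over 0.1) and of 0.113 in the fixation series (14 of 30 pairs over 0.1). With 2 replicates the deviations are exact opposites. The mean of -0.113 between different numbers in the fixation series is thus the same value with its sign changed and no separate comparison. Numbers were taken as pairs only if every pair was over 0.1, so they were not.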

Additional observations from a re-analysis of the deposited data

How the results depend on the processing

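Of 107 alternative settings of the tests and counts, 80 kept direction and side of the threshold (counts within 1.5 times), as did 314 of 350 fits that left out 1 library. Among the named fragments 88 of 95 did, 0 turned and 7 lost the call, 4 with the term for the 2 sets of libraries and 3 without a single library. Where no value below shows the cause, it was not tested. As a share of interactions within 250 kb, the change with formaldehyde was -1784 per 100000 and percent, the protocol difference -31.8 and the change per doubling of input 81.8, and the part between the promoters changed by -0.304 percentage points with formaldehyde and by -0.736 with input. With interactions in cis as denominator the protocol difference in share was -583. Within 0 to 2 and 3 to 5% formaldehyde, where no test was run, the share changed by 6113 and 819 and the edge by 0.605 and -0.0405, and the part between the promoters by 0.553 within 3 to 5%. From 100 and 50 ng alone the protocol difference in share was -721 and 1011. With LI-Capture-C and Tag-Capture-C alone, the change with input was 38.9 and -432 for the share (adjusted p = 0.0493 for the latter by permutation), -1.82 and -3.20 for the part between the promoters, and 0.0835 and 0.0435 for the slope, and the edge changed by 0.0217 in Tag-Capture-C. The slope changed by 0.111 per doubling of input when distance ran from the midpoint of the promoters and by 0.0330 over 5 to 100 kb, neither of which passed the test, and by 0.0453 per doubling of cells with counts per fragment, which did. With 10 to 25 against 35 to 50 kb as the edge, the protocol difference was 0.21 and the change with cell number 0.12. Formaldehyde called 36 fragments with library totals and 0 with the term for the 2 sets.

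Leaving out each library in turn, the changes with formaldehyde ranged from 2943 to 3121 (share), 1.502 to 2.42 (part between the promoters), -0.0859 to -0.0242 (slope) and 0.34 to 0.58 (edge). Those with protocol ranged from -115 to 277.9, -4.87 to -3.32, -0.00982 to 0.0396 and -0.49 to -0.05, those with input from -398 to -128, -3.11 to -2.04, 0.0441 to 0.0748 and -0.264 to 0.00796, and those with cell number from -509 to -289, -1.65 to -0.183, 0.0302 to 0.0476 and -0.40 to -0.03. The part between the promoters lost its call with formaldehyde without the first library of 0 or 3%, the second of 1% or either of 0.5 or 2%. It lost the call with protocol without LI-Capture-C 50 ng replicate 1 or 2 or Tag-Capture-C 50 ng replicate 2 or 3, and with input without LI-Capture-C 50 ng replicate 1 or 2, Tag-Capture-C 50 ng replicate 1 or 3 or Tag-Capture-C 200 ng replicate 3. The slope lost its call with formaldehyde in 2 fits, given in the report, and with input without LI-Capture-C 50 ng replicate 1 or 2, LI-Capture-C 200 ng replicate 3, Tag-Capture-C 50 ng replicate 2 or 3 or Tag-Capture-C 200 ng replicate 1. It gained one with cell number without 20000 cells library C or 100000 cells library A. Without LI-Capture-C 50 ng replicate 1 the share and slope differences between protocols turned and the share fell with input (permutation test, adjusted p = 0.0333), and without replicate 2 the edge turned with input. Fragments called ranged from 45 (without 2% replicate 1) to 71 with formaldehyde, from 0 to 3 with protocol (3 without LI-Capture-C 50 ng replicate 3), from 0 to 1 with input (1 without Tag-Capture-C 50 ng replicate 2) and were 0 with cell number. Over all tested fragments, 195 of 519 and 266 of 540 were called in the 2 formaldehyde fits. In those with protocol and input, 5 and 1 of 140 were called. With the replicate number as a block, the changes with formaldehyde were 3033 (share), 2.01 (part between the promoters), -0.0541 (slope) and 0.47 (edge), and 1 fragment was called with protocol. With the 12 fixed libraries as separate samples, where 104 fragments were tested, formaldehyde called 55 fragments with the block and 54 without. The backgrounds were 204 and 202 of 364 fragments. The block changed no other call listed here. Depth limits the far tail most, since fragments beyond 50 kb could be tested in the fixation series alone.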
